A study of Bos taurus with 10 samples.

Results

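The genes described here are the simple-epithelium keratins *KRT7*, *KRT8*, *KRT18* and *KRT19*, the mesenchymal filament gene *VIM*, and the desmosomal plaque genes *DSP*, *JUP*, *PKP2*, *PKP3* and *PPL*. They were taken by symbol from the expression table of single bovine early blastocysts, where all 10 were found among 20112 genes. Each library came from a single *Bos taurus* embryo made in vitro and labelled as 7.0 days old, while the methods of the study give a slightly later collection. The 5 WT embryos had received mRNA of BE3, a cytosine base editor, as zygotes and no guide. The 5 *SOX2* KO embryos had received the BE3 mRNA together with a mixture of guides that place stop codons in *SOX2*, so both groups carried the editor. Editing after injection can leave an embryo mosaic, and nothing in the labels says that the embryos of a group came from separate batches of fertilization, so p-values measure the spread between these embryos only.

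Keratins are intermediate filament proteins that assemble as pairs of a type I and a type II chain, and neither chain makes a filament alone. *KRT8* and *KRT7* encode type II chains, while *KRT18* and *KRT19* encode type I chains. These filaments run to desmosomes, the spot junctions between epithelial cells. There desmoplakin (*DSP*) ties them to plakoglobin (*JUP*) and the plakophilins (*PKP2*, *PKP3*), which bind the tails of the desmosomal cadherins. In the blastocyst, keratins and desmosomes are features of the trophectoderm, the outer epithelium that will form the placenta, and *KRT8* and *KRT18* are in common use as its markers.

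RNA was primed with oligo(dT), amplified by Smart-seq2 without molecular identifiers, and counted per gene by the authors. A normalized read count below is the authors' count divided by the size factor of the embryo. Reads on genes came to between 2223670 and 5134855 in a WT embryo and between 2578284 and 4337342 in a *SOX2* KO embryo. The 18S ribosomal RNA gene *RN18S1* took from 26.4% to 37.0% of the reads of WT embryos, and from 32.5% to 45.0% of those of *SOX2* KO embryos. Genes with at least 1 read numbered 15919 to 18092 in WT against 17987 to 19813 in *SOX2* KO. As for the stage, the trophectoderm genes *GATA3* and *CDX2*, the hypoblast gene *GATA6* and the epiblast gene *POU5F1* had reads in all 10 embryos. The targeted gene *SOX2* had 56.5 to 93.4 normalized reads in WT against 26.4 to 82.1 in *SOX2* KO (limma adjusted p = 0.167). A new stop codon need not remove a transcript, so these reads do not check the labels. The study reports that each sequenced blastocyst was genotyped from part of its cDNA. *NANOG*, an epiblast gene singled out in the study from these embryos, was lower in every *SOX2* KO embryo than in any WT embryo. The same held for 2.76% of all tested genes. In whole embryos, fewer cells of a type and less RNA per cell cannot be told apart.

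Groups were compared with limma on log2(normalized read count + 1) over 20056 genes, with Benjamini-Hochberg adjustment over all of them. A gene was called when its adjusted p was at most 0.05 and its change at least 2-fold. All 10 genes passed the filter on a mean of at least 1. Of the 10, *KRT19* and *PKP3* were called higher in *SOX2* KO, against 8.93% of all tested genes, and *KRT7* was called lower, against 1.16%. In either direction that made 3 of 10, against 10.1%. *KRT18* and *DSP* passed the threshold on the adjusted p but not that on the fold, and the other 5 passed neither. By the adjusted p alone, 4 were higher and 1 lower, against 10.4% and 3.2% of all tested genes, and 13.6% in either direction. The difference was positive for 9 of the 10. The median log2 fold change was 0.66 over the 10 genes and 0.25 over all tested genes. Of the 10 genes, 6 had a mean of 100 or more, 3 of 10 to 100 and 1 under 10. At these 3 levels the medians of all tested genes were -0.11, 0.037 and 0.93. The shares called higher there were 2.29%, 6.76% and 14.1%, and those called lower 1.34%, 2.27% and 0.195%. The groups did not overlap for *KRT18*, which was higher in *SOX2* KO, against 6.41% of all tested genes, nor for *KRT7*, which was lower, against 2.76%, and 9.17% in either direction.

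**Figure D1:**
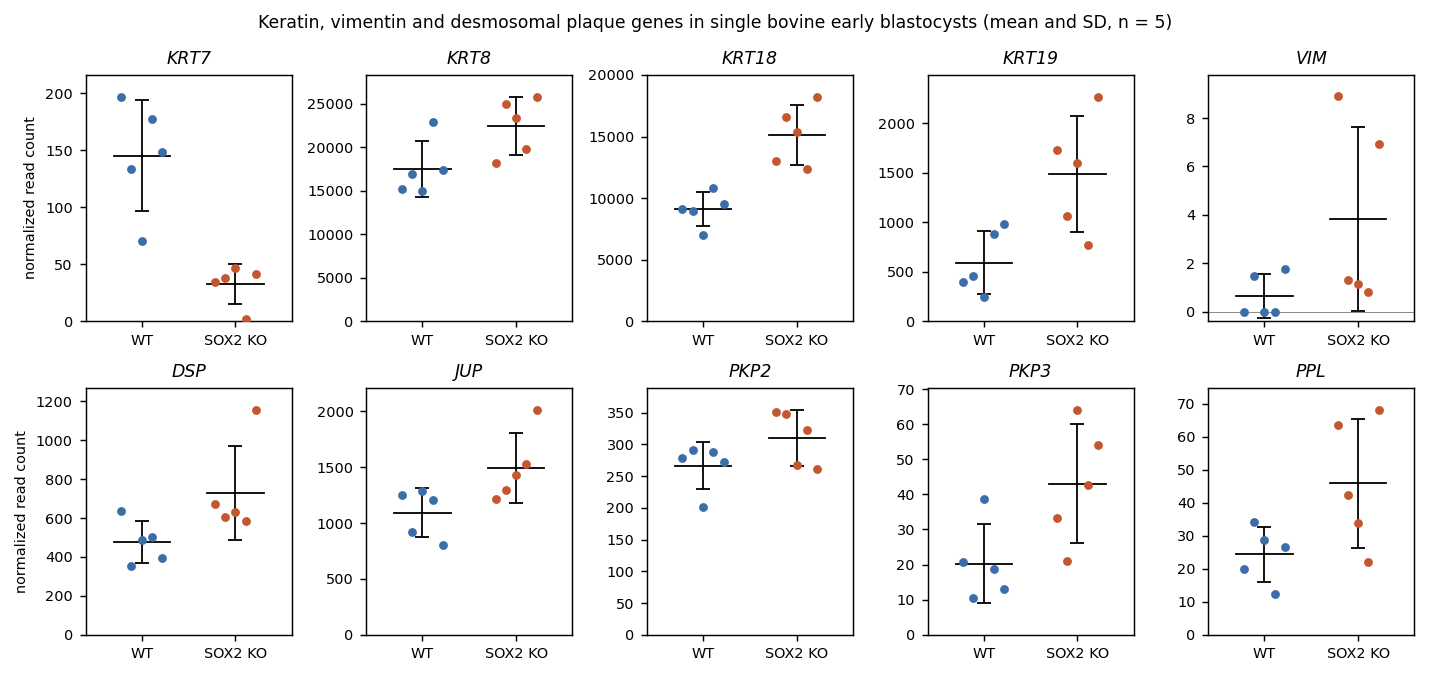
Normalized read count (vertical axis, linear, from 0 except for *VIM*) of the 10 genes in each of 5 WT and 5 *SOX2* KO embryos. Points (blue WT, orange *SOX2* KO) are embryos in the order nc1 to nc5 and ko1 to ko5, long bars are means and error bars SD. *KRT7* is lower in each *SOX2* KO embryo than in any WT embryo, *KRT18* is higher in each, and *VIM* stays under 10 throughout.

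*KRT8*, the main type II chain of simple epithelia, took 0.459% to 0.650% of all reads in WT against 0.556% to 0.734% in *SOX2* KO embryos. Its normalized read counts were 15217, 16938, 15026, 22926 and 17375 in WT embryos nc1 to nc5. They were 18211, 24983, 23402, 19826 and 25760.4 in *SOX2* KO embryos ko1 to ko5. The groups overlapped through nc4, which lay above 2 of the *SOX2* KO embryos. On the log2 scale the change was 0.36 (standard error, SE, 0.27, adjusted p by limma = 0.352), with a 95% interval from -0.19 to 0.92, that is 0.877-fold to 1.89-fold.

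*KRT18*, the type I partner of *KRT8*, had 9087, 8992, 6996, 10868 and 9559 in WT. In *SOX2* KO embryos it had 13053, 16561, 15397, 12397 and 18214. Every *SOX2* KO embryo was above every WT embryo. The means were 9100.3 ± 1394 and 15124 ± 2419 (SD, n = 5 each), or 0.73 on the log2 scale (SE 0.23, adjusted p by limma = 0.0394). The change of 1.66-fold was under the threshold on the fold. The adjusted p went above 0.05 in 7 of 10 fits with 1 embryo removed (nc1, nc2, nc5, ko1, ko2, ko3 or ko5), reaching 0.113.

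*KRT19* encodes the type I keratin without a tail domain, known from simple epithelia. Its counts were 398, 463, 249.6, 884 and 981 in WT and 1730.3, 1066, 1599, 774 and 2267 in *SOX2* KO. The WT embryos nc4 and nc5 were above the lowest *SOX2* KO embryo, ko4. From means of 595 ± 319 and 1487 ± 584 (SD, n = 5 each), *KRT19* rose with a log2 fold change of 1.40 (SE 0.31, adjusted p by limma = 0.00793), that is 2.64-fold with a 95% interval of 1.68 to 4.15. It stayed called in 10 of 10 fits that left out 1 embryo and under all 11 other settings of scaling, pseudocount, filter, weights and test.

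*KRT7*, the other type II keratin of simple epithelia, went the opposite way. WT embryos had 197, 133, 70.6, 177 and 149, and *SOX2* KO embryos had 34.5, 38.3, 46.5, 2.46 and 41.5. The lowest WT embryo, nc3, was above the highest *SOX2* KO embryo, ko3. *KRT7* fell from 145 ± 48.5 to 32.7 ± 17.4 (SD, n = 5 each), with a log2 fold change of -2.47 (SE 0.51, 95% interval -3.53 to -1.41, adjusted p by limma = 0.00484). Behind these means were 899 *KRT7* reads over all WT embryos and 139 over all *SOX2* KO embryos.

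The *KRT7* value of embryo ko4 stood apart. It had 3 *KRT7* reads, whose exact 95% Poisson interval of 0.508 to 7.20 normalized reads covers counting error only and lies below the other *SOX2* KO embryos. Without ko4 the log2 fold change of *KRT7* was -1.76, and the gene stayed called. It also stayed called in the other 9 fits that left out 1 embryo and under 11 of 11 other settings, with adjusted p of 0.000297 to 0.0149 among the former.

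**Figure D2:**
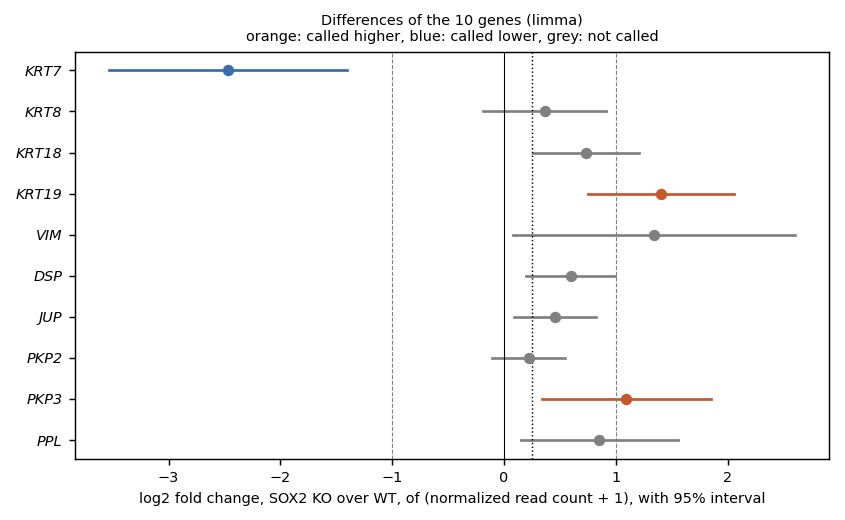
Log2 fold change (horizontal axis, *SOX2* KO over WT, of normalized read count + 1) of the 10 genes with 95% intervals from limma. Dashed lines mark a 2-fold change and the dotted line the median of all tested genes, 0.25. *KRT7* lies at -2.47 on the left, while the other 9 genes lie right of 0, with *KRT19* at 1.40. The intervals of *KRT19*, *PKP3* and *KRT18* start above the dotted line, that of *KRT18* only just. The point of *VIM* rests on few reads and depends on the added 1.

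*KRT8* and *KRT18* varied least between embryos of a group among the keratins, with coefficients of variation of 18.3% and 15.3% in WT and 14.6% and 16.0% in *SOX2* KO. *KRT19* had 53.7% and 39.3%, and *KRT7* had 33.4% and 53.4%. In the RefSeq gene order of assembly ARS-UCD2.0, *KRT18* and *KRT8* are direct neighbours, although *KRT18* encodes a type I chain. *KRT7* has *KRT80* beside it, and *KRT19* lies between *KRT15* and *KRT9*. *KRT80* had means of 16.4 and 37.2, with a limma adjusted p of 0.0694. *KRT15* and *KRT9* had adjusted p of 0.667 and 0.422. *KRT78*, on the other side of *KRT8*, was called higher on few reads and is described with the other keratins.

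Ratios were taken within an embryo, after 1 was added to each normalized read count. For genes with many reads the size factor of the embryo then nearly cancels, but for genes with few reads the added 1 bears on the ratio. For 7 pairs, the log2 ratio was compared by a two-sided exact permutation test, whose smallest p with 5 embryos against 5 is 0.00794. The size of a ratio depends on transcript lengths, which were not used here, so only its change is read. Per 100 normalized reads of *KRT8* there were 59.7, 53.1, 46.6, 47.4 and 55.0 of *KRT18* in WT, and 71.7, 66.3, 65.8, 62.5 and 70.7 in *SOX2* KO. The groups did not overlap. The ratio was 1.29-fold higher in *SOX2* KO, a difference of 0.37 on the log2 scale (exact permutation p = 0.00794, and 0.0278 after Benjamini-Hochberg adjustment over the 7 ratios). Each *SOX2* KO embryo thus had more reads of the type I chain, relative to its type II partner, than any WT embryo.

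The same ratio varied less than either gene. The SD within groups was 0.12 for the log2 ratio, 0.23 for log2 *KRT18* and 0.23 for log2 *KRT8*. *KRT7* per 100 normalized reads of *KRT8*, with 1 added to each count, was 1.30, 0.794, 0.476, 0.777 and 0.862 in WT and 0.195, 0.157, 0.203, 0.0175 and 0.165 in *SOX2* KO. It was 7.12-fold lower in *SOX2* KO, a log2 difference of -2.83 (exact permutation p = 0.00794, adjusted 0.0278), again with no overlap, and -2.16 without ko4. Within the type I chains, *KRT19* against *KRT18* had a log2 difference of 0.67 (exact permutation p = 0.119, adjusted 0.250), with overlapping groups.

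**Figure D3:**
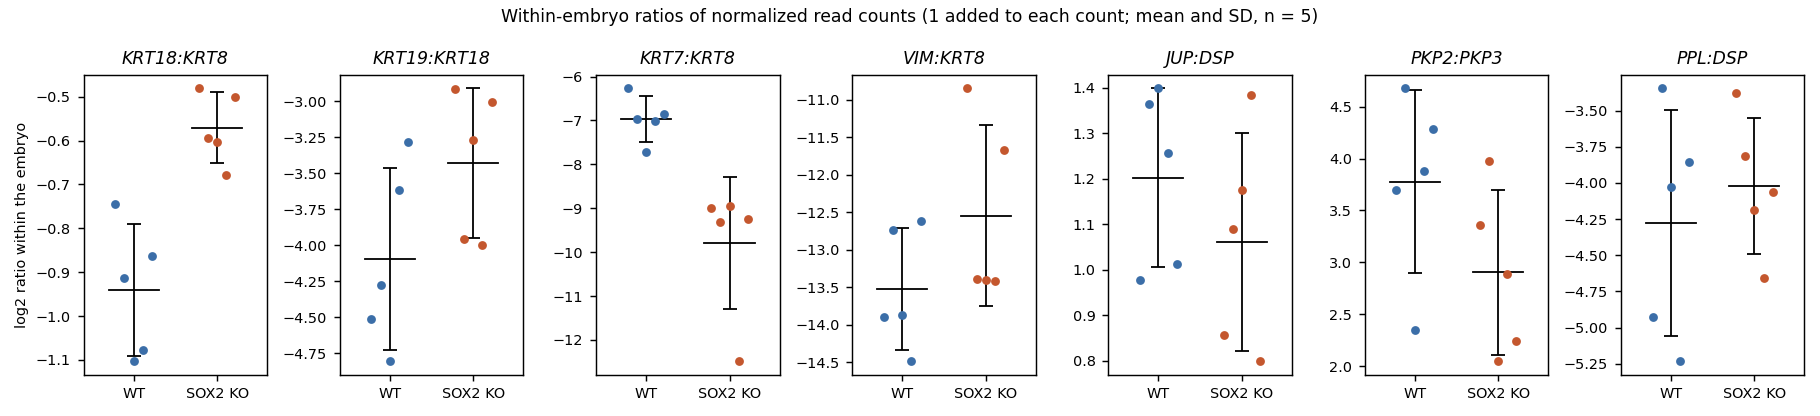
Log2 ratio of normalized read counts within an embryo (vertical axes, 1 added to each count, each panel on its own scale) for 7 pairs of genes. Points are embryos, long bars means and error bars SD (n = 5). *KRT18* to *KRT8* lies between -1.10 and -0.74 in WT and between -0.68 and -0.48 in *SOX2* KO, and *KRT7* to *KRT8* likewise does not overlap, while the 5 other pairs do.

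*VIM* encodes vimentin, the type III filament of mesenchymal cells and of many cultured cells. It was listed at 0 in nc1, nc3 and nc4 and had 1 read in nc2 and 3 in nc5. In *SOX2* KO embryos it had 8, 1, 1, 1 and 6 reads. Thus 8 of 10 embryos were at or under the floor of 3 reads, and no fold is given. The ratio of *VIM* to *KRT8* did not pass (exact permutation p = 0.198, adjusted 0.278), and no size is read from it, since its log2 difference was 2.66, 0.98 and 0.19 with 0.1, 1 and 5 added to the counts. The gene did not pass (limma adjusted p = 0.133, edgeR 0.139 and DESeq2 0.145 on the recovered reads).

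The 2 embryos with more *VIM* reads, ko1 and ko5, also had the most detected genes, 19813 and 19561. Of 10 listed markers of fibroblasts and mesenchyme, 7 were in the table. They summed to 66.8 to 120 normalized reads in WT against 137 to 284 in *SOX2* KO. There *COL1A1*, *COL1A2*, *DCN* and *PDGFRB* were called higher and 0 lower, against 8.93% and 1.16% of all tested genes. Of the 7 markers, 5 had a mean under 10, and 14.1% of all tested genes with such a mean were called higher. Cumulus and granulosa markers summed to 47.5 to 155 in WT against 91.2 to 470 in *SOX2* KO, with 0 of 9 called by limma, 1 at an unadjusted p under 0.05 (*HAS2*), and *CYP11A1* past the adjusted threshold by edgeR on the recovered reads (adjusted p = 0.0164). *CYP11A1* had the most reads among them, and *AMH* and *FOXL2* had 7 reads each over all WT embryos and 11 each over all *SOX2* KO embryos. The part of either cell type in the *VIM* values was not tested.

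*DSP*, the plakin that anchors keratin to the desmosome, had 634, 356, 486, 504 and 397 in WT and 670.3, 606, 631, 585 and 1154 in *SOX2* KO. The groups met at nc1, which was above 3 *SOX2* KO embryos, and ko5 stood far above the rest. The log2 fold change was 0.59 (SE 0.19, adjusted p by limma = 0.0458), under the threshold on the fold. Without ko5 it was 0.42, and the adjusted p was above 0.05 in 6 of 10 fits with 1 embryo removed (nc2, nc4, nc5, ko1, ko3 or ko5).

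*JUP*, or plakoglobin, the armadillo protein of both desmosomes and adherens junctions, had 1250.1, 918, 1284, 1204 and 802 in WT. It had 1214, 1291, 1428, 1527 and 2009 in *SOX2* KO. The groups overlapped, and the log2 fold change of 0.45 did not pass (SE 0.18, adjusted p by limma = 0.0851). *JUP* against *DSP* within embryos had a log2 difference of -0.14 (exact permutation p = 0.333, adjusted 0.389).

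The plakophilins brace the plaque sideways. *PKP2*, the form of simple epithelia, had 279, 291, 202, 288 and 272 in WT and 352, 349, 267, 322 and 261 in *SOX2* KO. Its log2 fold change was 0.22 (95% interval -0.11 to 0.55, limma adjusted p = 0.344), the smallest of the 10. *PKP3*, found in most desmosome-bearing epithelia, had 20.6, 10.4, 38.8, 18.6 and 13.0 in WT and 33.4, 21.1, 64.0, 42.7 and 54.2 in *SOX2* KO. The WT embryo nc3 was above the 2 lowest *SOX2* KO embryos.

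*PKP3* was called higher by a small margin, with a log2 fold change of 1.09 (SE 0.36, adjusted p by limma = 0.0496). The call was lost when nc1, nc2, nc4, nc5, ko1, ko3, ko4 or ko5 was left out, and under 7 of 11 other settings, among them edgeR on the recovered reads (adjusted p = 0.0611). *PKP2* against *PKP3* had a log2 difference of -0.87 (exact permutation p = 0.143, adjusted 0.250).

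*PPL* encodes periplakin, a plakin that binds keratin and vimentin and is best known from the envelope of stratified epithelia. It had 19.8, 34.1, 28.8, 12.4 and 26.6 in WT and 63.5, 42.3, 33.7, 22.2 and 68.0 in *SOX2* KO. The 2 embryos with the highest values were ko1 and ko5. Its log2 fold change of 0.85 did not pass (SE 0.34, adjusted p by limma = 0.0908), but without ko4 it was 1.08 and called. *PPL* against *DSP* had a log2 difference of 0.26 (exact permutation p = 0.540, adjusted 0.540).

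Some embryos stood at the ends of their group for several of these genes. Embryo ko5 had the highest value of its group for *KRT8*, *KRT18*, *KRT19*, *DSP*, *JUP* and *PPL*, and ko4 had the lowest for *KRT7*, *KRT18*, *KRT19*, *DSP* and *PPL*. In WT, nc3 had the lowest value for *KRT7*, *KRT8*, *KRT18*, *KRT19* and *PKP2*. Embryo ko5 also had the highest share of *RN18S1* reads (45.0%), and nc3 the highest of WT (37.0%). Whether these shares have a part in the values of those embryos was not tested.

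After the group means were taken off, the genes whose log2 values followed *KRT8* most closely over the 10 embryos were *RBPMS*, *SLC9A3R1* and *CHMP3*, with Pearson coefficients of 0.97, 0.94 and 0.94. The search covered the 6982 genes whose mean was 50 or more. *KRT18* came 15th by rank, at 0.86. For *KRT18* they were *PTTG1IP*, *STMN1* and *RPS4X* (0.96, 0.94 and 0.93). For *DSP* they were *SPPL3*, *CLDN3*, which encodes a tight junction claudin, and *PLA2G15* (0.98, 0.92 and 0.88), and *JUP* stood at 0.80. *DSP* and *KRT8* had a coefficient of 0.19. These are descriptions over few embryos that share the scaling of their libraries.

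The other 11 desmosome genes on the list included 4 called higher, *DSC1*, *DSC2*, *PKP1* and *EVPL*, and 0 called lower. Of all tested genes, 8.93% were called higher and 1.16% lower. *DSC2*, a desmosomal cadherin of simple epithelia, had 306, 233, 177, 374 and 344 in WT and 744, 507, 643, 794 and 917 in *SOX2* KO. It rose with a log2 fold change of 1.35 (SE 0.20, adjusted p by limma = 0.000327). Its usual partner *DSG2* had means of 552 ± 52.9 and 586 ± 31.7 (SD, n = 5 each), a log2 fold change of 0.09 with a 95% interval of -0.19 to 0.38 (limma adjusted p = 0.674). *PERP*, a desmosomal membrane protein, had a log2 fold change of 0.41 (limma adjusted p = 0.153).

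*PKP1*, the plakophilin typical of stratified epithelia, had 2.29, 10.4, 2.98, 6.99 and 3.54 in WT and 24.5, 46.2, 23.3, 18.1 and 49.6 in *SOX2* KO. The groups did not overlap, and the log2 fold change was 2.47 (SE 0.45, adjusted p by limma = 0.00182). *EVPL* encodes envoplakin, which pairs with periplakin. It rose from 11.5 ± 5.46 to 38.8 ± 11.3 (SD, n = 5 each; log2 fold change 1.77, limma adjusted p = 0.00714). *DSC1* was called on 1 read summed over the WT embryos and 25 reads summed over the *SOX2* KO embryos (limma adjusted p = 0.00944). *PKP1*, *EVPL*, *DSC1* and *DSC2* stayed called in 10 of 10 fits that left out 1 embryo. The median log2 fold change of the 11 genes was 0.66.

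Among 7 plakin and hemidesmosome genes, *PLEC* and *ITGB4* were called higher and 0 lower, against 8.93% and 1.16% of all tested genes. Plectin (*PLEC*) crosslinks keratin filaments and had 251, 114, 316, 99.5 and 135 in WT and 315, 387, 493, 361 and 656 in *SOX2* KO, with nc3 just above ko1. Its log2 fold change was 1.37 (SE 0.27, adjusted p by limma = 0.00354). *ITGB4*, the hemidesmosomal integrin chain to which plectin binds, went from 5.59 ± 2.52 to 26.9 ± 13.8 (SD, n = 5 each; log2 fold change 2.04, limma adjusted p = 0.00863). Its partner *ITGA6*, singled out after its values were seen, did not overlap between groups but was under the threshold on the fold, with a log2 fold change of 0.89 (limma adjusted p = 0.00714), and the tetraspanin *CD151* had 0.74 (limma adjusted p = 0.00714). *MACF1*, a plakin of actin and microtubules, had -0.04 (limma adjusted p = 0.885). The median of the 7 was 0.89.

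**Figure D4:**
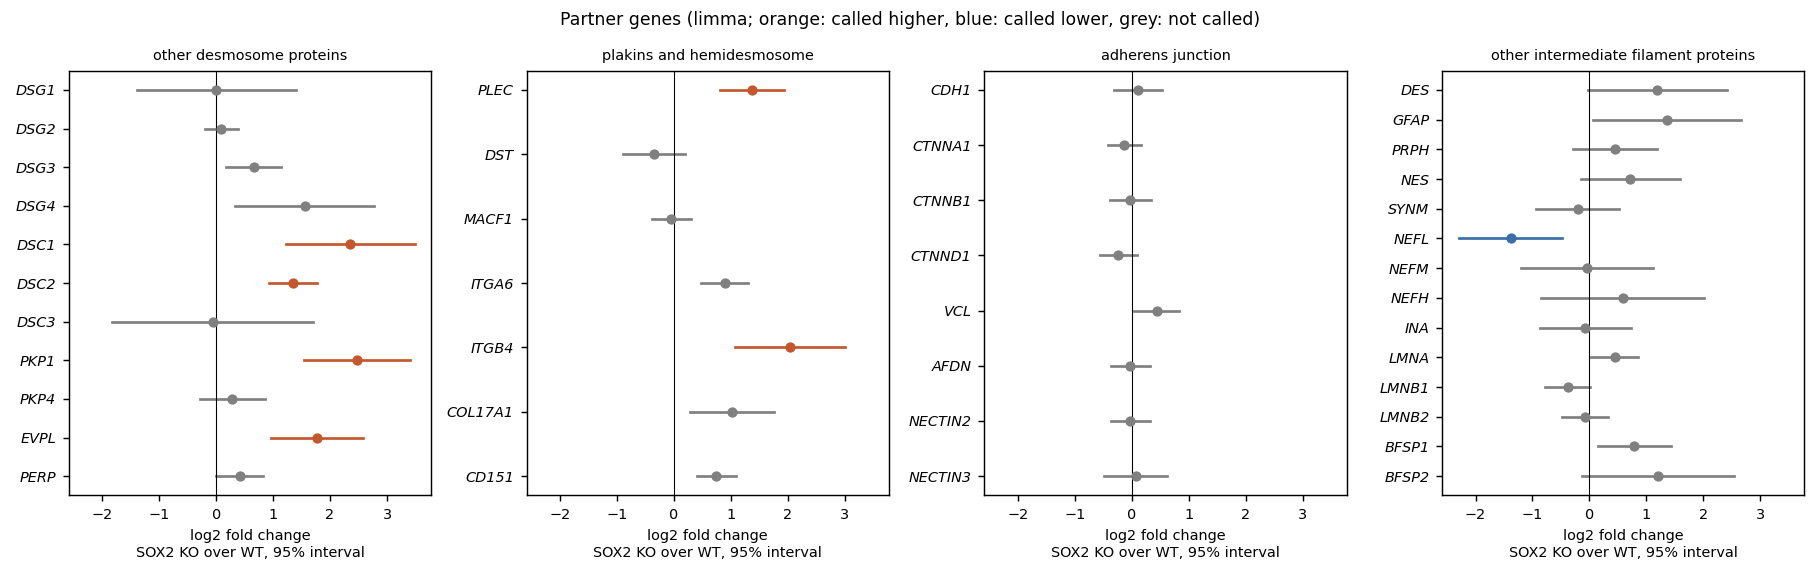
Log2 fold change (horizontal axes, *SOX2* KO over WT) with 95% intervals from limma for partner genes in 4 lists. *DSC1*, *DSC2*, *PKP1* and *EVPL* of the desmosome and *PLEC* and *ITGB4* are called higher, 0 of the 8 adherens junction genes are called, and *NEFL* is called lower. Of all tested genes, 8.93% are called higher and 1.16% lower.

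Of 8 adherens junction genes, 0 were called by limma, edgeR or DESeq2, and *VCL*, named after its values were seen, was the 1 with an unadjusted limma p under 0.05. Of all tested genes, limma called 8.93% higher and 1.16% lower. All 8 genes had a mean of 10 or more. Of tested genes with a mean of 100 or more, 2.29% were called higher and 1.34% lower. With a mean of 10 to 100, 6.76% were called higher and 2.27% lower. *CTNNA1*, *CTNNB1* and *CDH1*, which encode the catenins and E-cadherin of the belt that runs beside the desmosomes, differed by -0.13, -0.03 and 0.11 on the log2 scale, with adjusted p by limma of 0.537, 0.932 and 0.734. The median over the 8 genes was -0.02, where that of all tested genes was 0.25. For tested genes with a mean of 100 or more the median was -0.11, and for those with a mean of 10 to 100 it was 0.037. Of 14 other intermediate filament genes, *NEFL*, a neurofilament chain, was called lower and 0 were called higher, with a median log2 fold change of 0.44. *NEFL* fell from 40.6 ± 26.4 to 13.6 ± 5.63 (SD, n = 5 each; log2 fold change -1.39, limma adjusted p = 0.0412), and kept its call in 4 of 10 fits that left out 1 embryo. The nuclear lamins *LMNA* and *LMNB2* and the neuronal filament gene *PRPH* differed by 0.44, -0.08 and 0.45 on the log2 scale, with adjusted p by limma of 0.127, 0.800 and 0.394.

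A further 35 keratin genes were in the table, and 31 of them had a mean under 10. *KRT5*, the basal keratin of stratified epithelia, had the highest mean, with 13.2 to 119 in WT against 46.2 to 256 in *SOX2* KO (limma adjusted p = 0.542). *KRT1* had an adjusted p of 0.938. The genes *KRT17*, *KRT36*, *KRT71*, *KRT78*, *KRT79* and *KRT83*, most of them keratins of hair follicles or stratified epithelia, were called higher and 0 lower. The shares over all tested genes were 8.93% and 1.16%, and 14.1% and 0.195% over those with a mean under 10. *KRT17* had overlapping groups and a call that held in 2 of 10 fits with 1 embryo removed. Summed over the embryos of a group, *KRT36*, *KRT71*, *KRT79* and *KRT83* had 1 read each in WT and 26, 21, 22 and 17 in *SOX2* KO. *KRT78* was listed at 0 in every WT embryo and had 24 reads summed over the *SOX2* KO embryos. The median log2 fold change of the 35 genes was 1.28.

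The 31 keratin genes with a mean under 10 together had 22.9, 28.2, 67.6, 25.6 and 40.7 normalized reads in WT embryos and 230.5, 51.5, 113, 56.7 and 197 in *SOX2* KO embryos. At least 1 read was seen for 8 to 20 of them in WT and for 20 to 31 in *SOX2* KO. Embryos ko1 and ko5, with the highest sums, were the 2 with the most detected genes, and the part of gene detection in these sums was not tested. Of all tested genes whose mean was below 10, 14.1% were called higher and 0.195% lower, against 2.29% and 1.34% of those whose mean was 100 or more. Keratins are a family of similar genes, and how reads that fit several of them were counted is not given in the sources used here.

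**Figure D5:**
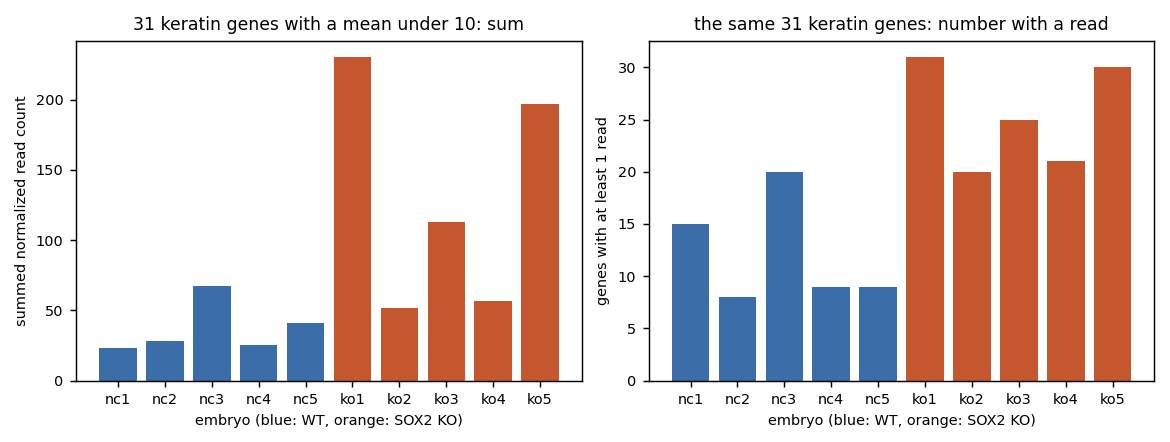
Left, summed normalized read count (vertical axis) of 31 keratin genes with a mean under 10 in each embryo; right, the number of these genes with at least 1 read. WT embryos reach 67.6 and 20 genes at most, and the sums of ko1 and ko5 are 230.5 and 197. The sums of ko2 and ko4, 51.5 and 56.7, lie below that of nc3, so the groups overlap.

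The markers of the cell types of the blastocyst were read beside these values. Of all tested genes, 8.93% were called higher and 1.16% lower. Of 11 trophectoderm markers in the table, keratins left out, *ELF3*, *DLX3* and *PAG2* were called higher and 0 lower, and the list summed to 1793 to 2575 normalized reads in WT against 2160.1 to 3289 in *SOX2* KO. *PAG2*, *NANOG*, *PRDM14*, *SALL4* and *POU5F1*, which encodes OCT4, were singled out in the study from these embryos and are no independent evidence of direction. *GATA3* and *CDX2* did not pass (limma adjusted p = 0.617 and 0.127). Of 9 epiblast markers, *NANOG*, *PRDM14*, *KLF17* and *ZFP42* were called lower and 0 higher, and the list summed to 1945 to 2347 in WT against 1020 to 1351 in *SOX2* KO. The 3 genes with the highest means in that list were *POU5F1*, *ZFP42* and *SALL4*, and it also holds the targeted *SOX2*. Its sum is therefore no independent evidence of direction either. Of 4 blood markers *PTPRC* was called higher, with list sums of 1.48 to 14.8 in WT against 2.64 to 35.6 in *SOX2* KO. The part of the makeup of the embryo in the keratin and desmosome values was not tested.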

How the data were processed

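Single early blastocysts were sequenced by Smart-seq2. Paired-end reads of 150 bp were cleaned (Trimmomatic 0.39), aligned by Hisat2 2.1.0 on assembly ARS-UCD1.2 and assigned to genes by featureCounts 1.6.3. The deposited table holds a normalized signal per gene, which the authors obtained by dividing counts by DESeq2 size factors. The annotation, strand setting and treatment of multi-mapping reads are not given in the sources used here. Whole reads, within 1e-06, came out of all 201120 values (100%) after division by the value of 1 read. Columns were assigned by name. The *SOX2* KO columns carry no label number.

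The members and lists were chosen with earlier results of these data known. limma 3.58.1 (eBayes with trend, R 4.3.3) was the main test on 20056 genes with a mean of at least 1. edgeR 4.0.16 and DESeq2 1.42.0 on the recovered reads were alternatives, as were pseudocounts of 0.1 and 5, other scalings, weights, filters and leaving out each embryo. Rescaling without *RN18S1* was chosen after seeing the data. limma, edgeR and DESeq2 were tested on simulated data. Ratios were tested by exact permutation (scipy 1.17.1). The text names the 10 members, called genes (at most 6 per list) and the 3 genes with the highest mean of each list, markers, and the 3 genes most like *KRT8*, *KRT18* and *DSP*. *VIM* was under the mean of 50 set for that. RefSeq symbols (ARS-UCD2.0) matched 10 of 10 members, and gave gene order only. Intervals and floors cover counting error only. Sequences, coordinates and transcript lengths were not used here. The result of 1 marker list is not reported here.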

Additional observations from a re-analysis of the deposited data

Results flagged for a closer look

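In 4 of 34 groups of 5 values, 1 embryo lay far from the other 4. About 1.7 would be flagged by chance if the values were normally distributed, which was not tested. The ratios share genes with the counts, so the 34 groups are not independent. *KRT7* had a normalized read count of 2.46 in ko4, and the next *SOX2* KO embryo had 34.5. The log2 ratio of *KRT7* to *KRT8* was -12.48 in ko4, with -9.31 in the nearest *SOX2* KO embryo, and rests on the same 3 reads. *DSP* had 1154 in ko5, and the next *SOX2* KO embryo had 670.3. *PKP2* had 202 in the WT embryo nc3, and the next WT embryo had 272.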

How the results depend on the processing

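*KRT7* and *KRT19* kept their calls in all 21 other fits, and the directions of the 10 genes and 7 ratios did not turn in any fit run. 1 gene of the 10 in place of 2 was called higher with pseudocounts of 0.1 and 5, equal totals with and without *RN18S1*, quantile normalization, a mean of at least 10 and edgeR, and 4 without a threshold on the fold; leaving out 1 embryo gave 1 to 2. Over all genes, 1792 were called higher and 232 lower. The number higher was 1002 with a pseudocount of 5, 640 with quantile normalization, 3229 with quality weights and 502 with a mean of at least 10, and 754 to 3050 with 1 embryo left out, the lowest without ko5 and the highest without ko4. The number lower was 475 with quantile normalization and 641 without the fold threshold. Calls higher made up 88.5%, 72.5% with a mean of at least 10 and 57.4% with quantile normalization. The median log2 fold change of all genes was 0.25, 0.14 with equal totals and -0.03 with quantile normalization, where *KRT8* had 0.06. The log2 difference of *KRT18* to *KRT8* was 0.37, and 0.59 with quantile normalization. With 1 embryo left out, that difference was 0.33 to 0.42 and that of *KRT7* to *KRT8* -3.05 to -2.16, with an adjusted p of 0.0556, the smallest the 2 ratios can reach together with 4 embryos against 5. No paired analysis was possible because ko1 to ko5 cannot be tied to the numbers in the labels, and no fit with a replicate block was run. Genes with few reads, such as *VIM* with 4 reads in WT, are limited by depth.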
